A study of Mus musculus with 12 samples.

Results

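The genes described here are Dgka and Dgkz, which encode diacylglycerol kinases α and ζ, Rasgrp1, which encodes a Ras exchange factor, and Rasa1, Rasa2, Rasa3 and Nf1, which encode Ras GTPase-activating proteins (Ras GAPs). They were chosen by name, and all 7 were found among the 11022 genes of the expression table. mRNA was measured by RNA sequencing in mouse cytotoxic T lymphocytes (CTL), which are effector CD8+ T cells expanded in culture. The cells came from 3 female LCMV-P14 TCR transgenic mice, whose T cells carry a single T cell receptor (TCR) that recognises the viral peptide gp33-41. All 12 cultures were primed for 48 h with peptide and cytokines and then grown in interleukin 2 (IL-2, 20 ng/mL), which stayed in the medium on day 7, when the cells rested for 1 h before treatment. The 4 groups of 3 biological replicates were unstimulated CTL, CTL given gp33-41 peptide at 100 ng/mL for 4 h (TCR), CTL given the same peptide with 10 µM IC87114, which inhibits the p110δ form of the lipid kinase PI3K (TCR+PI3Kdi), and CTL given the same peptide with 2 µM PD184252, an inhibitor of the kinases MEK1/2 (TCR+MEKi). DMSO was the vehicle, there was no group with an inhibitor and no peptide, and all comparisons of an inhibitor with TCR share the same TCR replicates.

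TCR engagement activates phospholipase Cγ1, which makes the membrane lipid diacylglycerol (DAG). DAG recruits RasGRP1, which loads Ras with GTP, and GTP-bound Ras switches on the kinases Raf, MEK1/2 and ERK1/2. Diacylglycerol kinases remove DAG by converting it to phosphatidic acid, and Ras GAPs make Ras hydrolyse its GTP, so that both families restrain the same signal that RasGRP1 promotes. Diacylglycerol kinases α and ζ are the main forms in T cells and are known for limiting TCR responses.

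Values are FPKM, fragment counts that the authors normalised to exon length and library size, so levels are per length. Ratios, sums and shares between genes take the summed exon length as that of the expressed transcripts, which was not checked. Differences were tested with limma on log2(FPKM + 0.1) over all 11022 genes, with Benjamini-Hochberg adjusted p-values. A gene passed the test at an adjusted p under 0.05, and it was called when its change was in addition larger than 2-fold. In bulk RNA a lower share of cells expressing a gene and less of its mRNA per cell cannot be told apart. All 7 markers of CTL were in the table, among them Gzmb at 8279 to 13582 FPKM and Cd8a at 213 to 430 FPKM, whereas Cd4 lay between 0.28 and 3.65 FPKM and none of the 10 markers of B cells, myeloid cells and red cells was in the table. The natural killer cell marker Klrb1c fell from 5.39 FPKM in unstimulated CTL to 1.79 FPKM with TCR, and its part in the results was not tested. The other natural killer cell marker looked up, Ncr1, was not in the table. Of the dendritic cell markers, Flt3 was not in the table and Itgax lay between 0.29 and 0.75 FPKM. The estimated depth was about 7640000 to 13200000 reads per sample, which corresponds to about 130 to 268 reads per sample for Nf1 and to 432 or more for each of the other 6 genes.

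On GRCm38 (mm10) with GENCODE M21, Dgka lies at chr10:128720134-128744855, Dgkz at chr2:91932824-91975864, Rasgrp1 at chr2:117279993-117343001, Rasa1 at chr13:85214780-85289130, Rasa2 at chr9:96539300-96631617 and Rasa3 at chr8:13566948-13677603, all on the minus strand, and Nf1 at chr11:79339693-79581612 on the plus strand. Exons of Dgka share 105 bases with Pmel on the other strand, those of Dgkz 222 bases with Gm9821 and those of Rasa1 12 bases with Ccnh. The libraries were stranded, but the sources do not say whether strand was used in counting, so reads in these stretches cannot be assigned with certainty.

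RefSeq (GRCm38.p6) lists 11 transcription starts for the 7 genes, 4 of them for Dgka and 2 for Dgkz. The 250 bases before each start were searched on both strands for the letters of factors that act downstream of PI3K (FOXO, GTAAACA and its core TAAACA, which overlap) or of ERK1/2 and calcium (AP-1, TGACTCA; EGR, GCGTGGGCG and GCGGGGGCG; CRE, TGACGTCA; ETS, CCGGAAGT; NFAT, GGAAAAT). Matches were found in 3 of the 11 windows. Rasa1 held GTAAACA, which 3.19% of the 32619 listed mouse windows hold, one start of Dgka held the core TAAACA (12.01% of windows), and Nf1 held the ETS letters (2.90% of windows). A match is a description of the sequence and not evidence of a bound factor. Printed here, 5′ to 3′ with matches in capitals, are the windows of Rasgrp1 and Rasa3, the genes with the largest changes after TCR stimulation, and the matching windows of Dgka and Rasa1, whose mRNA was lower in TCR+MEKi than in TCR+PI3Kdi. Bases inside annotated exons were left off the windows of Rasgrp1 and Rasa3. The regions are chr2:117343002-117343127 for Rasgrp1, chr8:13677604-13677837 for Rasa3, chr10:128737613-128737862 for Dgka, which is a start inside the gene, and chr13:85289487-85289736 for Rasa1, all on the minus strand.
Rasgrp1: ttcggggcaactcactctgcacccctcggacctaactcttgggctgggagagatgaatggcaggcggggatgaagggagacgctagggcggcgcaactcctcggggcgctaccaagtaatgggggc
Rasa3: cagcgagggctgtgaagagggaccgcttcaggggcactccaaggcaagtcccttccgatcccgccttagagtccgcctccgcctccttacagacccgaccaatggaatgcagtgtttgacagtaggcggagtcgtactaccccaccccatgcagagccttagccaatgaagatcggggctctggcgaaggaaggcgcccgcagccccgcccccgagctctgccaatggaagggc
Dgka: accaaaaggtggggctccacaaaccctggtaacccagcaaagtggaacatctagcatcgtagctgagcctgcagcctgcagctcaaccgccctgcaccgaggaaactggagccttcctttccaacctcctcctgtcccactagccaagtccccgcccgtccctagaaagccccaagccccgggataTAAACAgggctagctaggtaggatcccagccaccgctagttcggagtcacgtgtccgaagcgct
Rasa1: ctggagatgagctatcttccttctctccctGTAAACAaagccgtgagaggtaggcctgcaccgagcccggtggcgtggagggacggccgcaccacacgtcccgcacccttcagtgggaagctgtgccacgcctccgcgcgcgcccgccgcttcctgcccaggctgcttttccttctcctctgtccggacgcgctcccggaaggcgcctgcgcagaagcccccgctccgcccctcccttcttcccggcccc
In the Dgka window the match begins 64 bases before the start, and in the Rasa1 window it begins 220 bases before it.

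The diacylglycerol kinase genes rose after TCR stimulation, and the inhibitors moved Dgka in opposite directions but left Dgkz within the replicate spread. Dgka measured 38.27, 45.11 and 41.87 FPKM in the unstimulated replicates and 68.20, 67.76 and 77.03 FPKM with TCR. With the PI3K inhibitor it reached 87.93, 90.55 and 97.50 FPKM, while TCR+MEKi replicates lay at 36.61, 38.53 and 42.16 FPKM. All TCR replicates were above all unstimulated replicates, all PI3K inhibitor replicates were above all TCR replicates, and the MEK inhibitor replicates overlapped the unstimulated range. The rise with TCR was 1.70-fold (log2 fold change 0.77, SE 0.07, adjusted p = 3.25e-07). Relative to TCR, Dgka rose by a further 0.37 on the log2 scale in TCR+PI3Kdi (SE 0.07, adjusted p = 0.00210) and fell by 0.86 in TCR+MEKi (SE 0.07, adjusted p = 8.08e-07). Its level with the MEK inhibitor was 93.7% of the unstimulated mean, and the difference between these groups did not pass the test (log2 -0.09, 95% interval -0.25 to 0.07, adjusted p = 0.297). On the deposited scale the order of levels was TCR+PI3Kdi, TCR, then unstimulated and TCR+MEKi, whose ranges overlapped. On the TPM scale, where FPKM sums are made equal across samples, TCR+MEKi passed the test below unstimulated CTL (log2 -0.24, adjusted p = 0.0178).

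Dgkz measured 47.63, 50.03 and 47.05 FPKM in unstimulated CTL and 74.88, 65.75 and 73.34 FPKM with TCR. Its replicates lay at 68.73, 61.48 and 71.57 FPKM in TCR+PI3Kdi and at 62.62, 68.47 and 65.27 FPKM in TCR+MEKi. The 3 stimulated groups overlapped one another and lay above the unstimulated replicates. The rise with TCR was 1.48-fold (log2 0.56, SE 0.07, adjusted p = 2.67e-06). Neither inhibitor changed it by an amount that passed the test, with a log2 difference from TCR of -0.09 with the PI3K inhibitor (95% interval -0.23 to 0.06, adjusted p = 0.377) and of -0.12 with the MEK inhibitor (95% interval -0.26 to 0.02, adjusted p = 0.166).

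The ratio of Dgka to Dgkz mRNA moved accordingly. It was 0.865 ± 0.0536 (SD, n = 3) in unstimulated CTL, 0.997 ± 0.0755 with TCR, 1.37 ± 0.0971 in TCR+PI3Kdi and 0.598 ± 0.0431 in TCR+MEKi. The ranges of the last 2 groups lay on opposite sides of all TCR replicates. Dgka had the higher FPKM of the pair in every PI3K inhibitor replicate and Dgkz in every MEK inhibitor replicate.

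**Figure D1:**
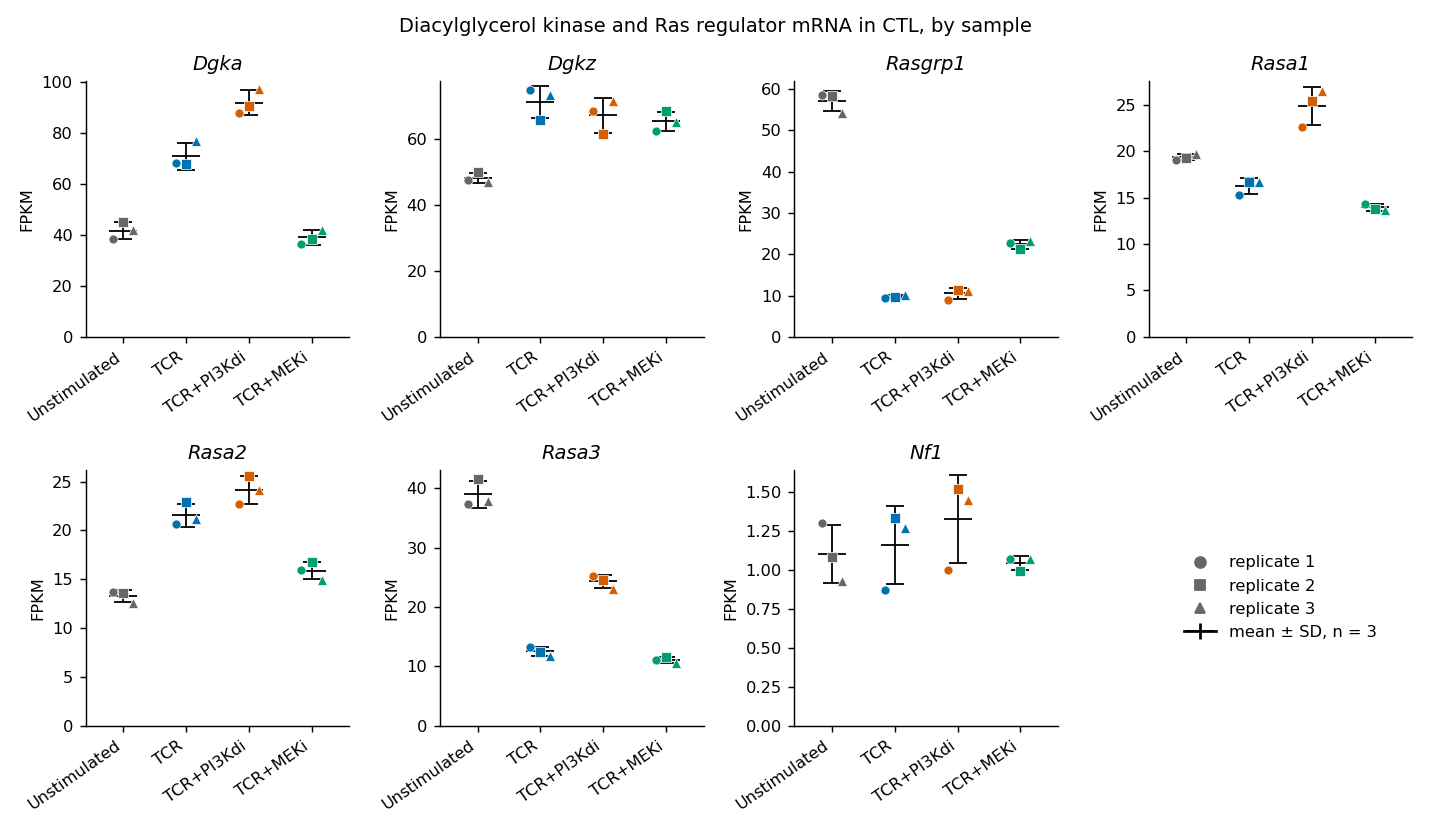
FPKM of the 7 genes (vertical axes, each from 0) in the 4 groups (horizontal axes), with 1 symbol per replicate and bars for the mean ± SD of 3 replicates. Dgka is highest in TCR+PI3Kdi (87.93 to 97.50 FPKM), Rasgrp1 and Rasa3 are highest in unstimulated CTL, and Nf1 stays between 0.87 and 1.52 FPKM.

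Rasgrp1, the exchange factor, showed the largest change of the 7 genes. It measured 58.59, 58.17 and 54.29 FPKM in unstimulated CTL and 9.30, 9.69 and 10.13 FPKM with TCR. With the PI3K inhibitor it measured 8.95, 11.35 and 11.16 FPKM, and with the MEK inhibitor 22.71, 21.19 and 23.19 FPKM. The PI3K inhibitor replicates spanned the TCR range, whereas the MEK inhibitor replicates lay between the TCR and the unstimulated replicates without touching either. The fall with TCR was 5.82-fold (log2 -2.54, SE 0.08, adjusted p = 1.59e-12) and ranked 322 of 11022 genes by size. Before stimulation 87.7% of genes had a lower mean level than Rasgrp1, and with TCR 48.2% did.

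With the MEK inhibitor Rasgrp1 was 2.29-fold higher than with TCR (log2 1.20, SE 0.08, adjusted p = 1.05e-07), which undid 26.8% of the fall on the FPKM scale. It remained 2.54-fold below the unstimulated level (log2 -1.35, SE 0.08). The difference between the PI3K inhibitor and TCR did not pass the test (log2 0.10, 95% interval -0.08 to 0.28, adjusted p = 0.397). On the TPM scale this difference was 0.28 with an adjusted p of 0.0398.

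Set against the kinases, the summed FPKM of Dgka and Dgkz was 1.58 ± 0.0985 times that of Rasgrp1 in unstimulated CTL and 14.7 ± 0.818 times with TCR (SD, n = 3). It was 15.3 ± 2.06 times in TCR+PI3Kdi and 4.68 ± 0.343 times in TCR+MEKi. The MEK inhibitor replicates, at 4.37 to 5.05, lay apart from those of every other group.

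Among the Ras GAP genes, Rasa3 fell and Rasa2 rose after TCR stimulation, Rasa1 fell by less than Rasa3, and Nf1 did not pass the test. Rasa3, whose product is a membrane-bound GAP for Ras and Rap, measured 37.43, 41.58 and 37.89 FPKM in unstimulated CTL and 13.32, 12.43 and 11.79 FPKM with TCR. It measured 25.25, 24.61 and 23.05 FPKM in TCR+PI3Kdi and 11.09, 11.60 and 10.52 FPKM in TCR+MEKi. The PI3K inhibitor replicates lay between the unstimulated and the TCR replicates, and all MEK inhibitor replicates were below all TCR replicates. The fall with TCR was 3.10-fold (log2 -1.63, SE 0.07, adjusted p = 2.72e-11).

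With the PI3K inhibitor Rasa3 was 1.94-fold higher than with TCR (log2 0.95, SE 0.07, adjusted p = 4.49e-07), which undid 44.6% of the fall on the FPKM scale. It passed the test without being called, since the change stayed under 2-fold, and on the TPM scale it was called (log2 1.13). It remained 1.60-fold below the unstimulated level (adjusted p = 7.82e-07). The difference between the MEK inhibitor and TCR was -0.17 on the log2 scale (SE 0.07, adjusted p = 0.0624). With replicate number as a block its adjusted p was 0.0399, and on the TPM scale the value turned to 0.09.

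Rasa1, which encodes p120 RasGAP, measured 19.11, 19.25 and 19.75 FPKM in unstimulated CTL, 15.33, 16.73 and 16.75 FPKM with TCR, 22.62, 25.47 and 26.57 FPKM in TCR+PI3Kdi and 14.37, 13.83 and 13.68 FPKM in TCR+MEKi. No group overlapped another. It fell by 0.25 on the log2 scale with TCR (SE 0.07, adjusted p = 0.00450), and on the TPM scale by 0.66 (adjusted p = 3.78e-06). With the PI3K inhibitor it was 1.52-fold above TCR (log2 0.61, SE 0.07, adjusted p = 2.55e-05) and 1.28-fold above unstimulated CTL (adjusted p = 3.70e-04). The MEK inhibitor group was 0.22 below TCR on the log2 scale of the deposited values (log2 -0.22, SE 0.07, adjusted p = 0.0218), a difference that turned to 0.04 on the TPM scale. The difference between TCR+PI3Kdi and unstimulated CTL did not pass the test on the TPM scale (log2 0.13, adjusted p = 0.214).

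Rasa2, which encodes a related GAP of the same family as Rasa3, measured 13.67, 13.60 and 12.51 FPKM in unstimulated CTL, 20.63, 22.86 and 21.11 FPKM with TCR, 22.68, 25.53 and 24.18 FPKM in TCR+PI3Kdi and 15.93, 16.71 and 14.95 FPKM in TCR+MEKi. It rose 1.62-fold with TCR (log2 0.70, SE 0.07, adjusted p = 5.01e-07). The PI3K inhibitor group overlapped TCR and did not pass the test against it (log2 0.16, 95% interval 0.01 to 0.31, adjusted p = 0.105), though on the TPM scale it did (log2 0.34, adjusted p = 0.00703). Rasa2 was higher than in the same-numbered TCR replicate in 3 of 3 pairs, and with replicate number as a block the adjusted p was 0.0667. The MEK inhibitor group was lower than TCR (log2 -0.44, SE 0.07, adjusted p = 2.49e-04), which undid 68.5% of the rise on the FPKM scale, and it stayed above unstimulated CTL (log2 0.26, adjusted p = 0.00580). Neither of these last differences passed the test on the TPM scale (log2 -0.18 and 0.11).

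Nf1, which encodes neurofibromin, was the lowest of the 7 genes in every group and ranged from 0.87 to 1.52 FPKM over the 12 samples. Its group means were 1.10 ± 0.186 FPKM in unstimulated CTL, 1.16 ± 0.250 with TCR, 1.32 ± 0.282 in TCR+PI3Kdi and 1.04 ± 0.0462 in TCR+MEKi (SD, n = 3). The groups overlapped in all 6 comparisons and none passed the test, with adjusted p from 0.278 to 0.821. The 95% interval of the difference between TCR and unstimulated CTL ran from -0.37 to 0.47 on the log2 scale, wider than that of each of the other members, and it included the value of Rasa1 (-0.25). The replicate CV of Nf1 was 4.43% to 21.6%, and the part of depth in this spread was not tested.

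The summed FPKM of the 4 Ras GAP genes was 72.7 ± 2.44 in unstimulated CTL, 51.5 ± 1.67 with TCR, 74.6 ± 2.84 in TCR+PI3Kdi and 41.9 ± 1.52 in TCR+MEKi (SD, n = 3). Rasa3 made up 53.6 ± 1.38% of this sum in unstimulated CTL and 24.3 ± 1.93% with TCR, while the share of Rasa2 was 18.2 ± 0.784% and 41.8 ± 0.910%. With the PI3K inhibitor the sums of the replicates, 71.55 to 77.13, overlapped the unstimulated sums, 71.08 to 75.51, on the deposited scale, although the FPKM total over all genes was 549897 to 585849 in these samples and 470420 to 495945 in unstimulated CTL. In TCR+PI3Kdi the mean shares of Rasa1, Rasa2 and Rasa3 were 32.3% to 33.3% each.

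**Figure D2:**
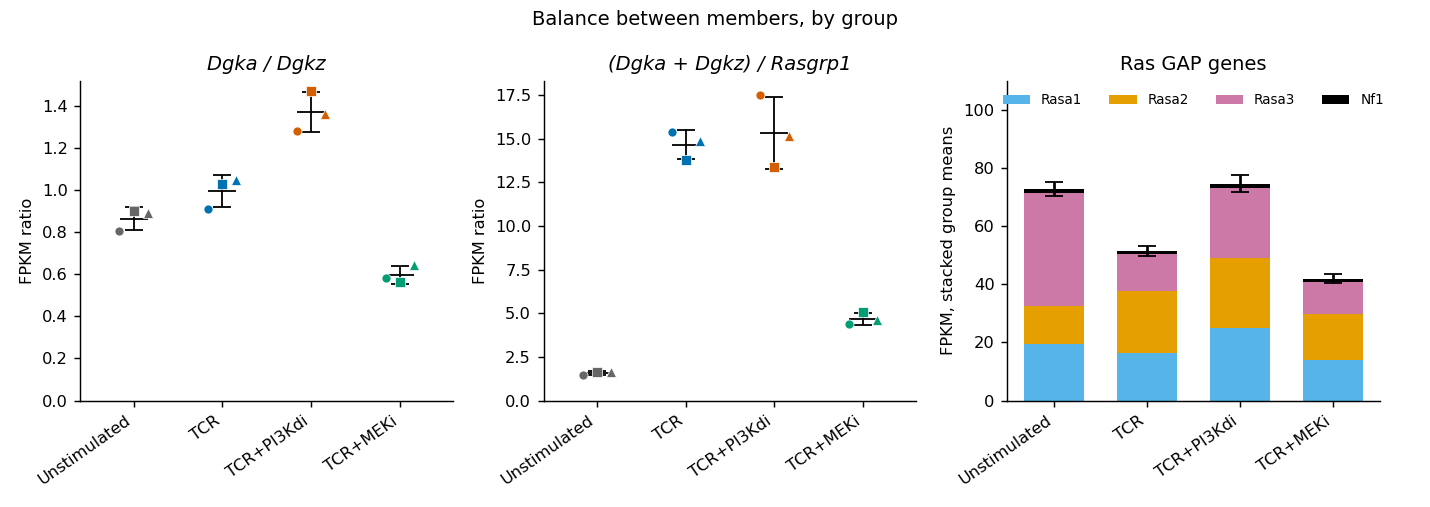
Left and middle, FPKM ratios by replicate (symbols) with mean ± SD of 3 replicates, on axes from 0; right, stacked group means of the 4 Ras GAP genes in FPKM with the SD of their sum. The Dgka to Dgkz ratio is highest with the PI3K inhibitor (1.37) and lowest with the MEK inhibitor (0.598), and the kinase to Rasgrp1 ratio is lowest in unstimulated CTL (1.58).

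Counted over the 7 genes, 2 were called after TCR stimulation, both lower (Rasgrp1 and Rasa3), beside 20.0% of all genes called in either direction and 11.1% called lower. The test was passed upwards by 3 (Dgka, Dgkz and Rasa2), beside 33.6% of all genes, and downwards by 3 (Rasgrp1, Rasa3 and Rasa1), beside 34.9%, which makes 6 of 7 beside 68.6%. The groups did not overlap for the same 6, beside 71.2% of all genes. These shares are near the background, so that the size and direction of single genes and not their number are what the comparison shows.

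With the PI3K inhibitor against TCR, 0 of 7 genes were called by limma beside 1.88% of all genes. The 3 that passed the test, all upwards (Dgka, Rasa1 and Rasa3), compare with 25.6% of all genes that passed it in either direction and 12.7% that passed it upwards, and at an unadjusted p under 0.05 Rasa2 made a count of 4, all upwards, beside 37.7% of all genes in either direction and 18.8% upwards. The groups did not overlap for the same 3, beside 37.6% of all genes. Rasa3 was the 1 gene called on the TPM scale. With the MEK inhibitor against TCR, 1 of 7 was called (Rasgrp1, higher) beside 3.49% of all genes called in either direction and 0.980% called higher. Of the 7 genes 4 passed the test, beside 37.1% of all genes, and 3 of these were lower (Dgka, Rasa1 and Rasa2), beside 18.2% of all genes. The groups did not overlap for 5 of 7, Rasa3 being the fifth, beside 48.8% of all genes.

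**Figure D3:**
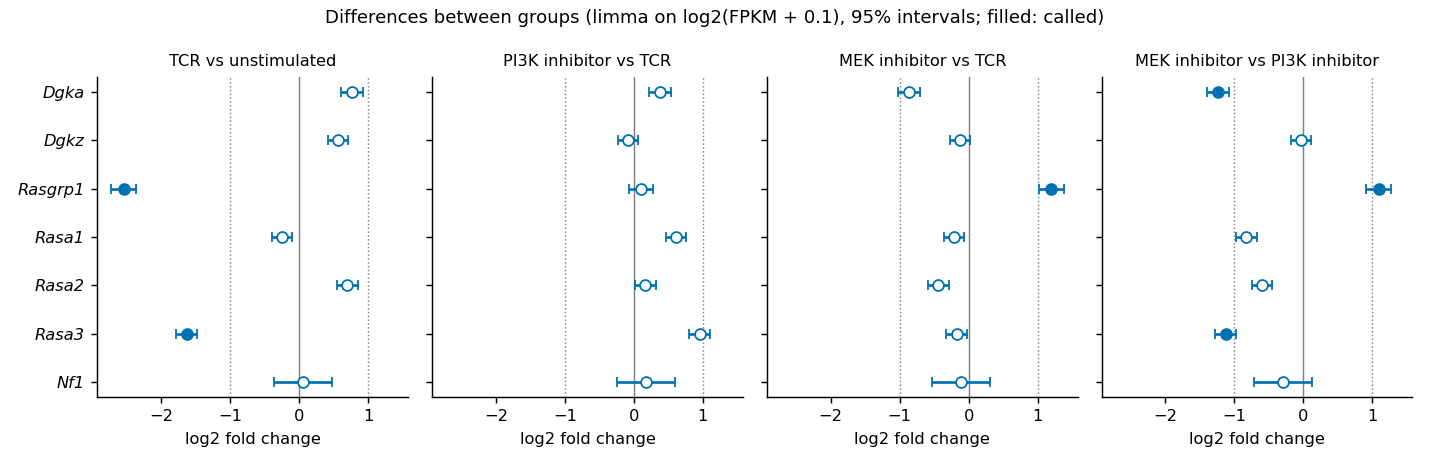
Log2 fold changes (horizontal axes) of the 7 genes in 4 comparisons, with 95% intervals from limma and filled symbols for genes called; dotted lines mark a 2-fold change. Against TCR, the PI3K inhibitor values of Dgka, Rasa1 and Rasa3 lie above 0, while Dgka with MEK inhibitor lies below 0 and Rasgrp1 above it.

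The direct comparison of the inhibitor groups tests whether their effects differed, since both are taken against the same TCR replicates. It called 3 of 7 genes, beside 3.09% of all genes, and 5 of 7 passed the test, beside 28.9% of all genes. The groups did not overlap for the same 5, beside 43.6% of all genes. Dgka was 2.35-fold lower in TCR+MEKi than in TCR+PI3Kdi (log2 -1.23, SE 0.07, adjusted p = 2.74e-08) and Rasa3 2.18-fold lower (log2 -1.13, SE 0.07, adjusted p = 3.01e-08). Rasgrp1 was 2.13-fold higher with the MEK inhibitor (log2 1.09, SE 0.08, adjusted p = 2.80e-07), a call that was lost without TCR+PI3Kdi replicate 1 (log2 0.98). Rasa1 and Rasa2 were lower with the MEK inhibitor without being called, by log2 values of -0.83 and -0.60. Dgkz and Nf1 did not pass the test (log2 -0.04 and -0.30).

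Against unstimulated CTL, 2 of 7 genes were called in the PI3K inhibitor group beside 14.6% of all genes. These were Dgka (2.20-fold higher, log2 1.14, adjusted p = 5.60e-09) and Rasgrp1 (5.42-fold lower, log2 -2.44), and on the TPM scale the call of Dgka was lost (log2 0.91). In the MEK inhibitor group 2 of 7 were called beside 13.4% of all genes, Rasgrp1 (log2 -1.35) and Rasa3 (log2 -1.81).

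Rescaling to the TPM scale moved the median of all genes from -0.01 to -0.41 on the log2 scale for TCR against unstimulated CTL, from 0.02 to 0.19 for the PI3K inhibitor against TCR and from 0.01 to 0.26 for the MEK inhibitor against TCR. The split of called genes moved with it, from 978 higher and 1224 lower after TCR to 647 higher and 2276 lower, from 55 and 152 to 119 and 107 for TCR+PI3Kdi, and from 108 and 277 to 323 and 202 for TCR+MEKi. Small changes of the members are therefore relative to the scaling. On the TPM scale the TCR rise of Dgkz was 0.15 (adjusted p = 0.0506), that of Dgka 0.35 (adjusted p = 0.00108) and that of Rasa2 0.28 (adjusted p = 0.00839), each above a median that had itself shifted down, while Rasgrp1 (-2.95) and Rasa3 (-2.04) stayed called.

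Beyond the 7 genes, 58 further genes of the pathway were listed by role, and 46 of them were in the table. After TCR stimulation 15 of the 46 were called, 7 higher and 8 lower, and 38 passed the test. Of all genes 20.0% were called on the same deposited scale, 8.87% higher and 11.1% lower, and 68.6% passed the test. The median log2 change of the 46 was 0.04 beside -0.01 over all genes. The TPM scale gave 18 calls among the 46, 4 higher and 14 lower. These compare with the all-gene calls on the TPM scale given above, where lower calls outnumbered higher ones as well.

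The diacylglycerol kinase family rose as a whole after TCR on the deposited scale. All 6 family genes in the table passed the test upwards, beside 33.6% of all genes, with a median log2 change of 0.74, and 0 were called. Dgkd rose from 17.7 ± 1.32 to 30.2 ± 1.20 FPKM (log2 0.77, adjusted p = 1.25e-07), and Dgke, Dgkh and Dgkq rose by log2 values of 0.65, 0.82 and 0.71 from lower levels of 2.57 to 3.80 FPKM. On the TPM scale the median was 0.33 and 3 of the 6 passed the test (Dgka, Dgkd and Dgkq). Against the inhibitors the family did not move together: Dgkd was lower with the PI3K inhibitor (22.9 ± 1.35 FPKM, log2 -0.40, adjusted p = 8.05e-04), where Dgka was higher, a difference of Dgkd that did not pass the test on the TPM scale (log2 -0.21, adjusted p = 0.0507). With the MEK inhibitor Dgka was the single family gene that passed the test, although on the TPM scale Dgkd, Dgke and Dgkh passed it upwards.

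The other exchange factors of the RasGRP family in the table fell with Rasgrp1 after TCR. Rasgrp2, which encodes a calcium- and DAG-responsive exchange factor acting mainly on Rap1, fell from 20.7 ± 1.25 to 4.61 ± 0.231 FPKM (log2 -2.15, adjusted p = 1.18e-10) and Rasgrp4 from 8.74 ± 1.07 to 3.17 ± 0.474 FPKM (log2 -1.44, adjusted p = 2.06e-06). The summed FPKM of Rasgrp1, Rasgrp2 and Rasgrp4 was 86.5 ± 4.23 in unstimulated CTL, 17.5 ± 0.757 with TCR, 17.1 ± 1.84 in TCR+PI3Kdi and 32.1 ± 1.52 in TCR+MEKi. In the opposite direction, Rasgef1b, which encodes an exchange factor with a CDC25 domain, measured 0.11 ± 0.0265 FPKM in unstimulated CTL and 8.56 ± 0.525 FPKM with TCR (log2 5.37, adjusted p = 5.97e-13). Its starting level is close to the 0.1 added before taking logs, so the size of this change depends on that number. It was called lower with the MEK inhibitor (3.74 ± 0.537 FPKM, log2 -1.18). Rasgrf2 fell from 1.13 ± 0.235 to 0.263 ± 0.0907 FPKM.

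Among the other Ras GAP genes Rasa4 fell from 6.91 ± 0.618 to 2.57 ± 0.146 FPKM (log2 -1.39, adjusted p = 8.93e-07) and Rasal1 rose from 0.850 ± 0.147 to 3.04 ± 0.539 FPKM (log2 1.72, adjusted p = 2.51e-07). Of the 9 genes of this list in the table, the 4 members included, 3 passed the test upwards and 5 downwards after TCR. Over all genes 33.6% passed it upwards and 34.9% downwards. The median log2 change of the 9 was -0.25, and on the TPM scale 2 passed upwards and 5 downwards. Dab2ip was called lower with the MEK inhibitor, at 0.780 ± 0.154 FPKM beside 1.88 ± 0.231 with TCR (log2 -1.18, adjusted p = 7.39e-05), and it was called lower against the PI3K inhibitor group as well (log2 -1.24).

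Downstream of the exchange factors, Rras2, which encodes the Ras-related GTPase TC21, fell from 107 ± 5.26 to 40.2 ± 1.46 FPKM after TCR (log2 -1.40, adjusted p = 2.36e-11). The scaffold gene Ksr1, whose product brings Raf and MEK together, rose from 17.3 ± 1.28 to 42.0 ± 4.15 FPKM (log2 1.27, adjusted p = 7.50e-09), and Mapk3, which encodes ERK1, fell from 26.9 ± 0.778 to 12.6 ± 0.496 FPKM (log2 -1.09, adjusted p = 6.98e-08). Ksr1 was the single one of the 46 called with the PI3K inhibitor, at 19.5 ± 1.98 FPKM (log2 -1.11, adjusted p = 1.09e-06). That 1 call is 2.17% of the 46, beside 1.88% of all genes called. On the TPM scale Ksr1 was called in neither comparison, and with the PI3K inhibitor the 1 gene of the 46 called there was Rasgef1a, which was higher (log2 1.06, adjusted p = 0.00993).

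On the side of DAG production, Lcp2, which encodes the adaptor SLP-76, rose from 85.3 ± 4.89 to 192 ± 5.32 FPKM after TCR (log2 1.17, adjusted p = 1.11e-10). Lcp2, Lat and Plcg1, which encode parts of one complex that activates phospholipase Cγ1, were lower with the MEK inhibitor than with TCR, by log2 values of -0.81, -0.90 and -0.89 (adjusted p = 1.01e-07, 3.50e-06 and 1.37e-06), without being called. Of the other DAG-binding proteins, Prkcq (protein kinase Cθ) fell from 70.8 ± 1.23 to 31.7 ± 1.30 FPKM, Prkch (protein kinase Cη) rose from 53.4 ± 1.91 to 109 ± 1.43 FPKM and Prkd2 (protein kinase D2) fell from 12.9 ± 0.450 to 6.17 ± 1.05 FPKM, all 3 called. The calls of Lcp2 and Prkch after TCR were lost on the TPM scale. Prkd2 was called lower again with the MEK inhibitor (2.58 ± 0.282 FPKM, log2 -1.22, adjusted p = 6.81e-06). With the MEK inhibitor 4 of the 46 were called (8.70%), all lower, beside 3.49% of all genes called in either direction and 2.51% called lower. The test was passed by 22 of the 46 (47.8%), beside 37.1% of all genes. On the TPM scale the 1 call was Mras. In the comparison of the inhibitors 3 of the 46 were called (6.52%), beside 3.09% of all genes. They were Dab2ip, Rasgef1a and Mras, the last 2 of them near or below 1 FPKM in both groups.

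**Figure D4:**
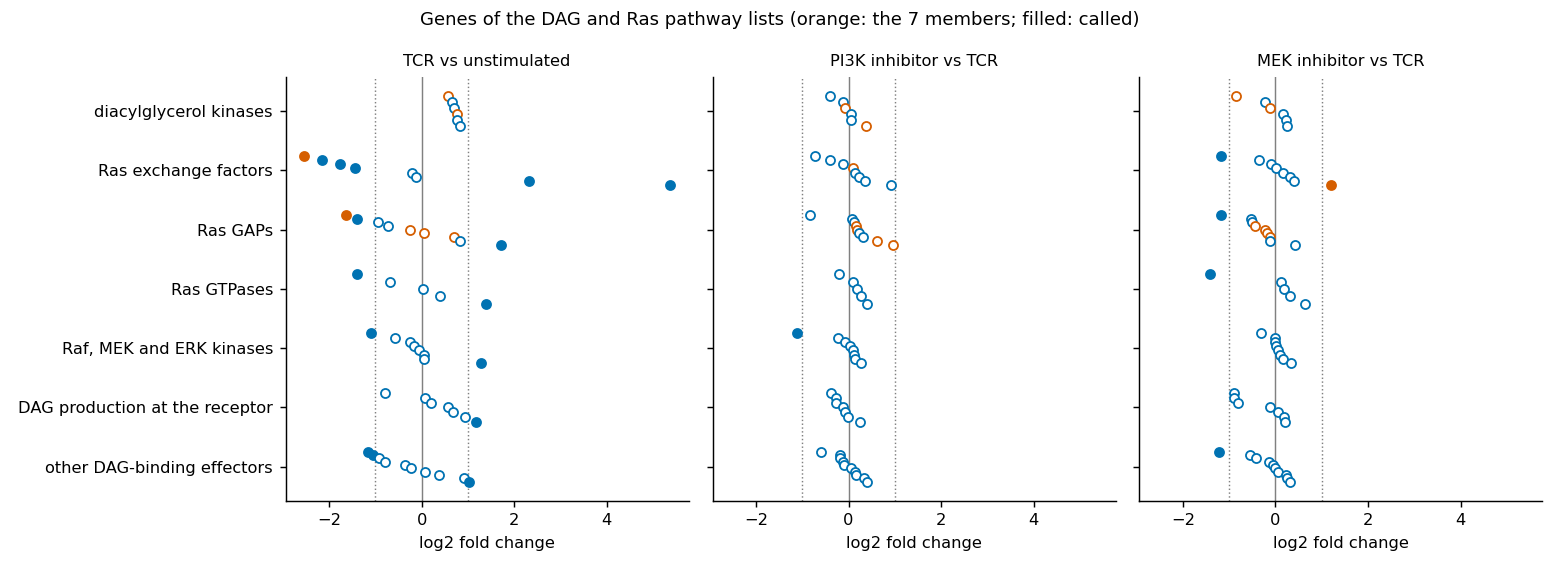
Log2 fold changes of the genes of 7 pathway lists in 3 comparisons, with 1 circle per gene, orange for the 7 genes described first and filled for genes called; dotted lines mark a 2-fold change. All 6 diacylglycerol kinase genes lie above 0 after TCR, and Rasgrp1 (-2.54) is the lowest point of the exchange factor list.

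As a description of which genes behaved most alike, the Pearson correlation of log2(FPKM + 0.1) over the 12 samples was computed against 10231 genes with a mean of at least 1 FPKM in some group. The samples share groups, libraries and scaling, so high values are common and carry no test. Dgka was most like Klrk1 (r = 0.986), which encodes the receptor NKG2D, followed by Atxn1 (0.980) and Ap1s3 (0.970), and 11 genes reached 0.95. Among the genes most like Rasgrp1 were Scd2 (0.995) and Cdca7l (0.992), with 289 genes at 0.95 or more. Rasa3 was most like Tpm4 (0.991), Me2 (0.985) and Gng2 (0.981). Rasa1 had few close matches, with 5 genes at 0.95 or more, led by Jhdm1d (0.989), Lax1 (0.969) and 2610018G03Rik (0.965). Dgkz was most like Syvn1 (0.981), Stard3 (0.979) and B4galnt1 (0.976), and Rasa2 most like 4933426M11Rik (0.993), Hs3st3b1 (0.982) and Suv420h1 (0.980). Nf1 was most like Zcchc6 (0.955), Prrc2c (0.893) and C330019G07Rik (0.889). Among the members themselves the closest pair was Dgka and Rasa2 (r = 0.907), and Rasgrp1 ran against both Rasa2 (-0.930) and Dgkz (-0.902).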

How the data were processed

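RNA from 12 cultures was sequenced in 1 lane (stranded, paired-end). The authors aligned reads to mm10 with STAR 2.4.2a, counted them per RefSeq gene with Subread 1.5.0, removed low genes with filterByExpr, scaled counts by TMM and deposited FPKM from the edgeR RPKM function over summed exon length. Counts, and the voom fit the study made on them, were not used here. Every value column was assigned to a sample by its header, leaving 0 unassigned.

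log2(FPKM + 0.1) of 11022 genes in all 12 samples was modelled by group means with limma 3.58.1 (R 4.3.3, lmFit, contrasts.fit, eBayes with trend). Adding 0.1 understates changes of low genes. Genes were called at an adjusted p under 0.05 and more than a 2-fold change. The members and lists were chosen with earlier results of these data known. Named genes are the 7 members, up to 3 called genes per list and comparison with the largest change and at least 1 FPKM in a compared group, and the 3 genes most correlated with each member, of which 1 is not reported here; the other diacylglycerol kinase genes, Rasgrp4, Lat, Plcg1 and Mras were named after their values were seen.

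Same-numbered replicates deviated together (r over 0.1 in every pair) in the 4 comparisons between stimulated groups or of the MEK inhibitor group with unstimulated CTL (0.117 to 0.451), but not in TCR or PI3K inhibitor against unstimulated (-0.0615 to 0.153). The 3 mice gave 3 biological replicates, and whether equal numbers mark the same mouse is not stated.

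Depth is not in the table. It was estimated from steps between low FPKM values, of which 38.7% to 65.2% lay within 0.15 of a whole read (30% by chance). Exon lengths for this were taken from GENCODE M21, whereas the authors counted reads per RefSeq gene. Read numbers are approximate for both reasons. As alternatives, 1 or 0.01 was added in place of 0.1, genes under a mean of 1 FPKM were left out, and use was made of the TPM scale, quantile normalisation, a replicate block, the compared groups alone, no trend, no fold threshold and leaving out each replicate. The code was tested on simulated data. Python 3.11.15, NumPy 2.4.6, pandas 2.3.3 and matplotlib 3.10.9 were used.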

Additional observations from a re-analysis of the deposited data

Results flagged for a closer look

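The direct comparison of the inhibitor groups, both taken against the same TCR replicates, called 3 of the 7 genes, beside 3.09% of all genes. The test was passed by 5 of 7, beside 28.9% of all genes. Rasa1 (log2 -0.83) and Rasa2 (log2 -0.60) passed it with changes under 2-fold, and the 3 called genes follow. For Dgka the effect of the MEK inhibitor was 1.23 lower on the log2 scale than that of the PI3K inhibitor (-1.23), and the values against TCR were -0.86 and 0.37. For Rasgrp1 the difference was 1.09, from values of 1.20 and 0.10, and its call held in 5 of 6 fits with a replicate left out. For Rasa3 it was -1.13, from values of -0.17 and 0.95.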

How the results depend on the processing

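The calls of the 7 genes depended most on the scaling and on the fold threshold. Without the 2-fold threshold 6, 3, 4, 5, 6 and 5 of them were called for TCR against unstimulated, TCR+PI3Kdi against TCR, TCR+MEKi against TCR, TCR+MEKi against TCR+PI3Kdi, and TCR+PI3Kdi and TCR+MEKi against unstimulated. Over all genes the counts without it were 7559, 2818, 4090, 3185, 6887 and 6571, and over the 46 pathway genes 38, 15, 22 and 22 in the first 4 comparisons. Adding 1 in place of 0.1 gave 1405, 90, 201, 150, 979 and 873 calls over all genes, as it shrinks changes of low genes, with 1 pathway gene called for TCR+MEKi against TCR and 0 between the inhibitors (0.01 in its place moved no count by over 1.5 times). The 0 came from the limma fit with 1 added, while the 22 that passed without the threshold came from the fit with 0.1 added. With genes under a mean of 1 FPKM left out, 1 pathway gene was called between the inhibitors. On the TPM scale 1 of the 7 genes was called for TCR+PI3Kdi against TCR (Rasa3) and 1 for TCR+PI3Kdi against unstimulated (Rasgrp1), and 1 pathway gene was called for TCR+MEKi against TCR. Signs that turned there belong to differences of small size: Nf1 after TCR (-0.32), Dgkz in TCR+PI3Kdi against TCR (0.10) and between the inhibitors (0.042), and Dgkz (0.14), Rasa1 (0.042), Rasa3 (0.085) and Nf1 (0.12) in TCR+MEKi against TCR. Quantile normalisation turned Dgkz in TCR+PI3Kdi against TCR to 0.0082.

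Leaving out 1 replicate at a time, the value of Nf1 after TCR ranged from -0.053 to 0.23, that of Nf1 in TCR+MEKi against unstimulated from -0.17 to 0.052, and that of Dgkz between the inhibitors from -0.10 to 0.0090, while the count of pathway genes called for TCR+PI3Kdi against TCR ranged from 1 to 2, with 2 both without TCR replicate 2 and without TCR+PI3Kdi replicate 2. Between the inhibitors 2 to 3 members were called. With replicate number as a block the counts of called members stayed at 2, 0, 1, 3, 2 and 2 in the 6 comparisons, and no call changed. The adjusted p of Rasa3 in TCR+MEKi against TCR moved from 0.0624 to 0.0399. The causes of these changes were not tested beyond what each alternative's construction fixes. Nf1 had the fewest estimated reads of the members, about 130 to 268 per sample, and how far depth limits its values was not tested.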
